A study of Gallus gallus with 24 samples.

Results

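The genes described here differed step by step across the 4 chick midgut libraries that carry a virus expressing Hoxd13, and had like levels in control hindgut and control midgut. They were chosen from the measured values. CPM is a gene's estimated count scaled to a library total of 1000000 counts, and the scale used is log2(CPM + 1), with CPM by column total. A member had a mean of at least 10 CPM in the 4 control midguts. Its mean hindgut level differed from its mean midgut level by under 0.3 on the log2 scale. Its level in Hoxd13 midgut 1 lay within the range of the control midguts. Each of the 3 steps from Hoxd13 midgut 1 to 2, 2 to 3 and 3 to 4 was at least 0.3 in one direction. Of 17136 genes in the table, 62 met these conditions, 5 of them upward (the rising members) and 57 downward (the falling members). The library numbers are names given by the submitters, not doses or times, so "rising" and "falling" say only in which order the 4 libraries lay.

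The libraries hold messenger RNA of the gut wall's mesoderm from chick (Gallus gallus) embryos, with the endoderm peeled off by hand, per the labels. The 3 groups of 4 libraries were midgut labelled RCAS-Hoxd13 (Hoxd13 midgut), hindgut labelled RCAS-mGFP (mGFP hindgut) and midgut labelled RCAS-mGFP (mGFP midgut). RCAS is a replicating avian retroviral vector, and mGFP is a fluorescent reporter, so every group was given a virus. Constructs were electroporated in ovo at stage HH 17, and the protocol names the splanchnic lateral plate mesoderm at midgut level, also for the libraries labelled hindgut. Incubation was at 38 degrees C for all samples, per the labels. The labels list 24 samples, with 12 at day 12 of incubation and as many at day 14, but the 2 deposited tables were the same in all 205632 values, so there is 1 set of 12 libraries and its age is not known. Genes carry Ensembl IDs only, and 0 of the 17136 could be paired with a symbol, so no member has a known function here, the mesoderm label could not be checked against marker genes, and Hoxd13 itself could not be looked up by name.

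Hoxd13 belongs to the most posterior class of Hox genes, transcription factors that give cells along the head-to-tail axis their regional identity. In the gut it is expressed in the mesoderm of the posterior end, the cloaca and distal hindgut. The mesoderm forms the connective tissue and smooth muscle layers and signals to the overlying epithelium, which takes different folded shapes in small and large intestine. Because the virus spreads from the cells first reached, the share of tissue that expresses its insert can differ between embryos.

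Library totals ran from 7607185 to 10497615 counts in Hoxd13 midgut, from 9384064 to 10745459 in mGFP hindgut and from 8389592 to 10880695 in mGFP midgut. Hoxd13 midgut 4 stood apart: 13480 genes had a count there, against 14565 to 14832 in the others, and 34.0% of its counts fell on its top 100 genes, a share of 21.7% to 24.1% elsewhere. The median of the 9346 genes with at least 10 CPM in mGFP midgut lay at -0.24 in Hoxd13 midgut 4 relative to the mGFP midgut mean, and at 0.11, 0.14 and 0.17 in Hoxd13 midgut 1, 2 and 3. With TMM-scaled totals, which correct for such shifts in composition, these medians were -0.02, -0.01, 0.02 and 0.02 in Hoxd13 midgut 4, 1, 2 and 3. The ID with the largest fitted increase among all genes called between Hoxd13 midgut and mGFP midgut, chosen after its values were seen, reached 2049, 3064, 4134 and 6129 CPM in Hoxd13 midgut 1, 2, 3 and 4, with 21.5 to 59.0 CPM in mGFP hindgut and at most 0.834 CPM in mGFP midgut. The order of the libraries by which members were chosen is therefore also the order of that transcript, and its last library is also the one with the fewest detected genes. These cannot be told apart with 4 libraries.

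The falling members formed the larger set, and their levels parted from the controls library by library. Their median deviation from the mGFP midgut mean was -0.05, -0.57, -1.04 and -2.50 on the log2 scale in Hoxd13 midgut 1, 2, 3 and 4. In mGFP hindgut 1 to 4 it was 0.08, 0.00, -0.43 and 0.29, and in mGFP midgut 1 to 4 it was 0.04, -0.14, 0.03 and 0.12. In bulk tissue, fewer cells of a type and less RNA per cell cannot be told apart. Taken relative to the median of all genes at 10 CPM or more in the same library, Hoxd13 midgut 1, 2, 3 and 4 lay at -0.16, -0.71, -1.21 and -2.26. A median removes only a shift common to all genes. What the composition of Hoxd13 midgut 4 adds to the members' values was not tested. With TMM-scaled totals and the same reference these values were -0.16, -0.70, -1.21 and -2.33.

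**Figure D1:**
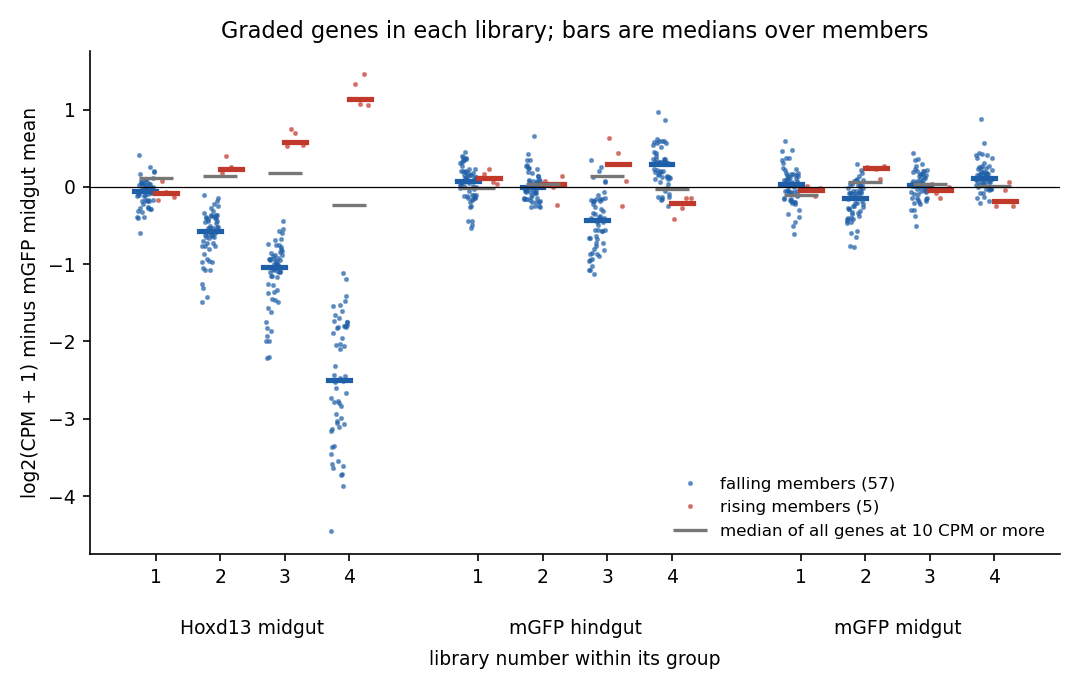
Level of each graded gene in each of the 12 libraries, as log2(CPM + 1) minus the gene's mean over the mGFP midguts; points are genes, coloured bars are medians over the 57 falling and 5 rising members, and grey bars are medians of all genes at 10 CPM or more. In Hoxd13 midgut the falling medians run from -0.05 to -2.50 and the rising medians from -0.08 to 1.14, and among the controls mGFP hindgut 3 is lowest for falling members, at -0.43.

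The first falling member, by the size of its smallest step, was ENSGALG00000040759. It had 66.0, 36.1, 20.6 and 9.99 CPM in Hoxd13 midgut 1, 2, 3 and 4, against 73.1, 64.0, 44.8 and 105 CPM in mGFP hindgut 1 to 4 and 91.3, 51.6, 58.3 and 96.2 CPM in mGFP midgut 1 to 4. Hoxd13 midgut 2, 3 and 4 lay below every control library, while Hoxd13 midgut 1 lay among them. Its group means were 33.2 ± 24.4 CPM in Hoxd13 midgut, 71.7 ± 25.1 CPM in mGFP hindgut and 74.4 ± 22.7 CPM in mGFP midgut (SD, n = 4 each), and the fitted log2 fold change of Hoxd13 midgut against mGFP midgut was -1.27 ± 0.46 (SE).

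The second was ENSGALG00000051848, with 40.2, 21.4, 12.5 and 4.995 CPM in Hoxd13 midgut 1, 2, 3 and 4, against 52.0, 47.7, 24.4 and 67.8 CPM in mGFP hindgut 1 to 4 and 73.4, 39.2, 50.3 and 53.5 CPM in mGFP midgut 1 to 4. Here too Hoxd13 midgut 2, 3 and 4 lay below all 8 control libraries, with mGFP hindgut 3 the nearest of them. Its fitted log2 fold change of Hoxd13 midgut against mGFP midgut was -1.56 ± 0.49 (SE). Each Hoxd13 midgut from 2 to 4 had 0.485 to 0.571 times the CPM of the preceding one for ENSGALG00000040759 and 0.398 to 0.585 times for ENSGALG00000051848, and the last step was the largest in both genes.

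The 5 rising members formed a small set, all below the mGFP midgut median of 43.6 CPM of the genes at 10 CPM or more. Their mean levels ran from 18.6 to 71.5 CPM in Hoxd13 midgut, from 14.3 to 45.7 CPM in mGFP hindgut and from 12.95 to 43.3 CPM in mGFP midgut. Their median deviation from the mGFP midgut mean was -0.08, 0.24, 0.58 and 1.14 on the log2 scale in Hoxd13 midgut 1, 2, 3 and 4, against 0.12, 0.04, 0.29 and -0.21 in mGFP hindgut 1 to 4 and -0.04, 0.24, -0.04 and -0.18 in mGFP midgut 1 to 4. In Hoxd13 midgut 4 they stood at 2.09 to 2.83 times their mGFP midgut mean CPM.

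ENSGALG00000031312, the first rising member by its smallest step, had 11.3, 14.7, 18.9 and 29.4 CPM in Hoxd13 midgut 1, 2, 3 and 4, against 14.1, 13.5, 20.4 and 9.38 CPM in mGFP hindgut 1 to 4 and 12.4, 15.5, 13.2 and 10.6 CPM in mGFP midgut 1 to 4. Only Hoxd13 midgut 4 exceeded all 8 control libraries, because mGFP hindgut 3 lay above Hoxd13 midgut 3. The fitted log2 fold change of Hoxd13 midgut against mGFP midgut was 0.52 ± 0.33 (SE), and it was 0.056 without Hoxd13 midgut 4. ENSGALG00000034591 had 45.3, 57.0, 73.3 and 110 CPM in Hoxd13 midgut 1, 2, 3 and 4, against 48.4, 44.4, 52.9 and 37.1 CPM in mGFP hindgut 1 to 4 and 43.6, 51.1, 40.6 and 37.9 CPM in mGFP midgut 1 to 4. Hoxd13 midgut 2, 3 and 4 were above every control library for this gene, and its fitted log2 fold change was 0.73 ± 0.28 (SE), or 0.28 without Hoxd13 midgut 4.

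**Figure D2:**
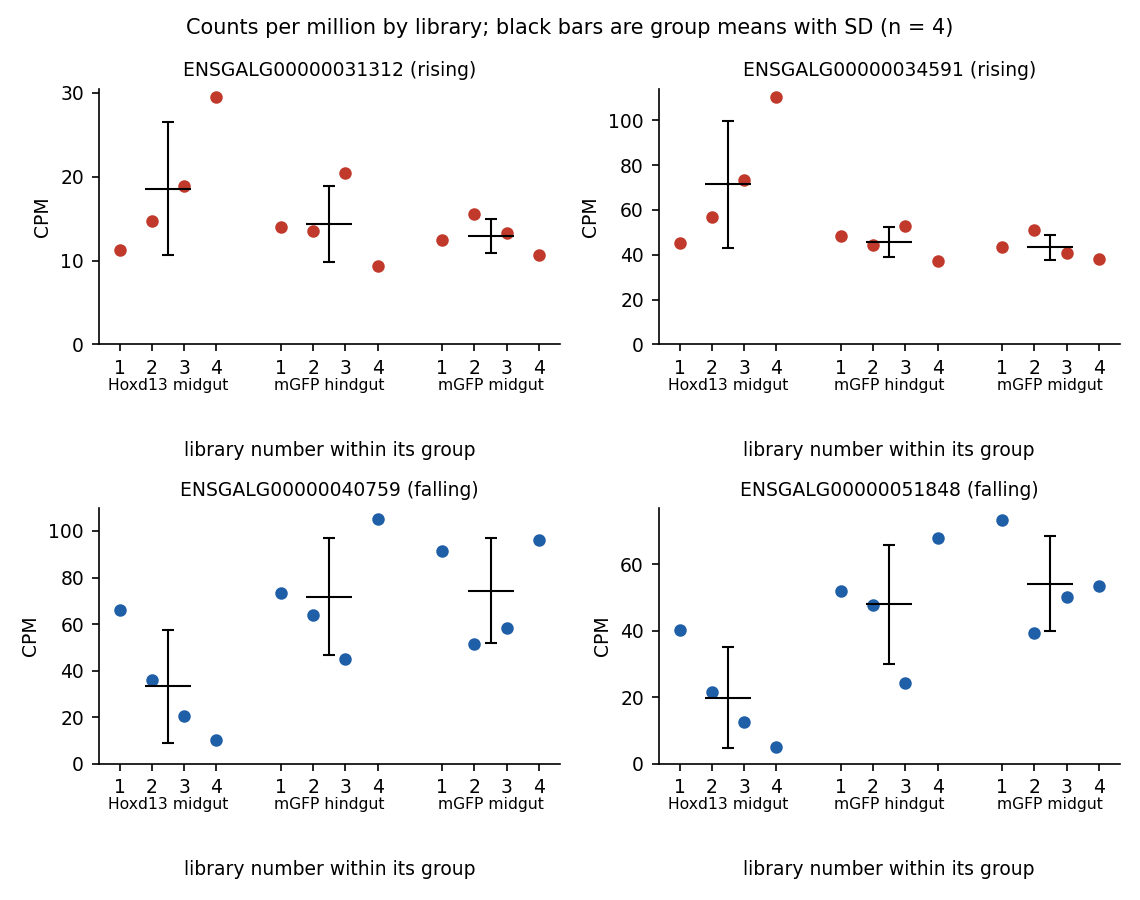
CPM of the 2 rising and 2 falling members with the largest smallest step, by library; coloured points are libraries and black bars are group means with SD (n = 4 each). ENSGALG00000034591 reaches 110 CPM in Hoxd13 midgut 4 and ENSGALG00000051848 is at 4.995 CPM there, while Hoxd13 midgut 1 lies among the mGFP midguts in all panels.

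The steps were unequal in the falling set. Their median size was -0.47 from Hoxd13 midgut 1 to 2, -0.46 from 2 to 3 and -1.33 from 3 to 4 on the log2 scale, where all genes at 10 CPM or more had medians of 0.00, -0.00 and -0.38. The last step was the largest in 51 of 57 falling members and in 4 of 5 rising members. The share of all genes with a largest last step was not counted, so this is not read as a trait of the members. From Hoxd13 midgut 1 to 4 the falling members differed by a median of -2.37 in log2(CPM + 1), with a range of -4.05 to -1.19. On that scale 36 of 57 differed by at least 2 units. The rising members had median steps of 0.33, 0.35 and 0.58, and a median change of 1.27 from Hoxd13 midgut 1 to 4. With TMM-scaled totals the median last step was -0.98 in falling and 0.96 in rising members.

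**Figure D3:**
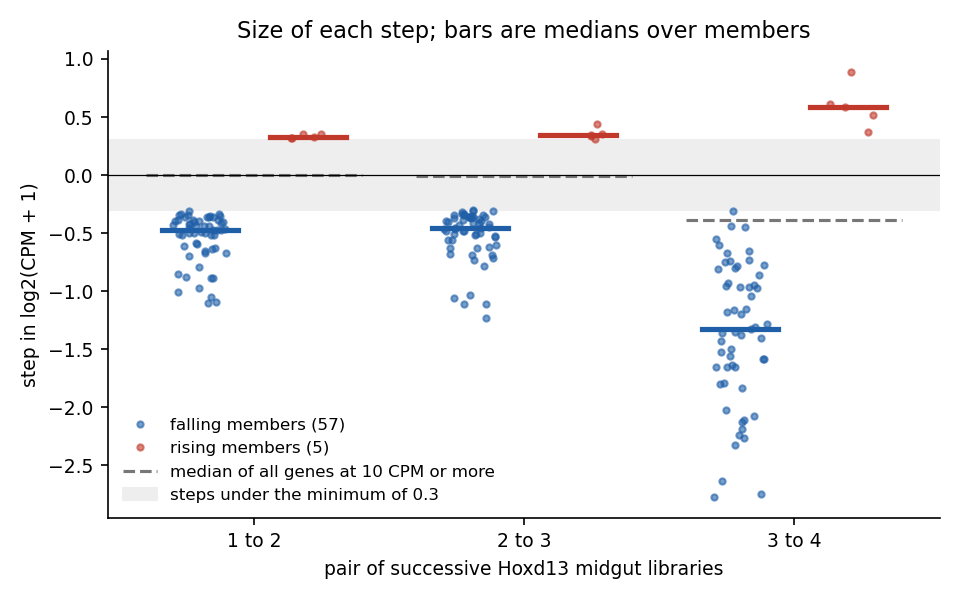
Size of each step between successive Hoxd13 midgut libraries in log2(CPM + 1); points are members, coloured bars their medians, dashed lines the median of all genes at 10 CPM or more, and the grey band the steps below the minimum of 0.3. The last step is the widest for falling members, with a median of -1.33, where the median of all genes also lies at -0.38.

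The rule chose members by the size of these steps, so their counting error is given as a description of depth and not as a test. An exact 95% interval for the ratio of the 2 libraries left out a ratio of 1 for 56, 51 and 56 of the 57 falling members at the first, second and last step, and for all 3 steps in 50 of them. It did so for all 3 steps in 5 of 5 rising members. For ENSGALG00000031312, the rising member with the fewest reads, the ratio of Hoxd13 midgut 2 to 1 was 1.30 with an interval of 1.01 to 1.69, from 154 and 105 counts. Such intervals cover counting error only, not the spread between embryos or the error of the count estimates. Counts of falling members in Hoxd13 midguts went down to 3, and 3 of them had 10 or fewer counts in Hoxd13 midgut 4.

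Falling members spanned a wide range of abundance. Their mean levels ran from 5.94 to 1847 CPM in Hoxd13 midgut, from 11.3 to 2354 CPM in mGFP hindgut and from 11.6 to 2774 CPM in mGFP midgut. The median in mGFP midgut was 35.9 CPM, where all genes at 10 CPM or more had a median of 43.6 CPM. The 10 members at 100 CPM or more in mGFP midgut had a median change of -3.27 from Hoxd13 midgut 1 to 4, and the 13 at 50 to 100 CPM, 18 at 20 to 50 CPM and 16 at 10 to 20 CPM had medians of -2.61, -2.15 and -2.29. The 1 CPM added in this scale shrinks changes at low CPM more than at high CPM, so no trend with abundance is read from these medians. The most abundant member had the smallest change of the set. It had 2755, 1924, 1501 and 1210 CPM in Hoxd13 midgut 1, 2, 3 and 4, with 1565 to 3013 CPM in mGFP hindgut and 2514 to 3046 CPM in mGFP midgut. The next in abundance had 1841, 1171, 882 and 525 CPM in Hoxd13 midgut 1, 2, 3 and 4, with 1118 to 1985 CPM in mGFP hindgut and 1727 to 2025 CPM in mGFP midgut. Summed over all 57 members, CPM was 7814, 5283, 3912 and 2245 in Hoxd13 midgut 1, 2, 3 and 4, against 5276 to 8588 in mGFP hindgut and 7601 to 8656 in mGFP midgut. Without the 2 most abundant members the sums were 3218, 2188, 1530 and 511 CPM in Hoxd13 midgut 1 to 4, against 2593 to 4271 CPM in mGFP hindgut and 3062 to 3781 CPM in mGFP midgut.

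The rule asked nothing about how the 4 mGFP hindguts differ from each other. Their order in the falling members is given here beside that in a wider set of genes, which includes the members. mGFP hindgut 3 was the lowest of the 4 hindguts in 45 of 57 falling members (78.9%), as in 15.8% of the 3730 genes that met every condition but the steps. mGFP hindgut 4 was the highest in 40 of 57 (70.2%), as in 15.7% of those genes. In mGFP hindgut 3 the falling members lay at a median of -0.41 from their own group mean, with 51 of 57 below it. Over the 3730 genes that median was 0.11, with 1038 below the group mean. In 37 of 57 falling members mGFP hindgut 3 lay below every mGFP midgut, as in 13.9% of the 3730 genes. Among the mGFP midguts, number 2 was the lowest in 33 of 57 falling members (57.9%), as in 13.9% of those genes. The range condition used the levels of the mGFP midguts, so their order is not independent of the rule. The 3730 genes were chosen by that condition too, but without the steps, so nothing is read from the midgut shares. The rule did not read the order of the hindguts. Their deviations correlated with those of same-numbered mGFP midguts, at 0.435 to 0.531, so the hindgut order is not independent of the rule either. The hindgut shares are given as a description. In the 5 rising members mGFP midgut 2 was the highest midgut in 5, mGFP hindgut 4 the lowest hindgut in 4 and mGFP hindgut 3 the highest in 3, which are also the commonest positions of these libraries in the 3730 genes, at 51.5%, 40.5% and 52.4%, and nothing is read from 5 genes. With TMM-scaled totals mGFP hindgut 3 was the lowest in 48 of 57 falling members (84.2%), as in 30.7% of those genes, and mGFP hindgut 4 the highest in 41 of 57 (71.9%), as in 27.0%.

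**Figure D4:**
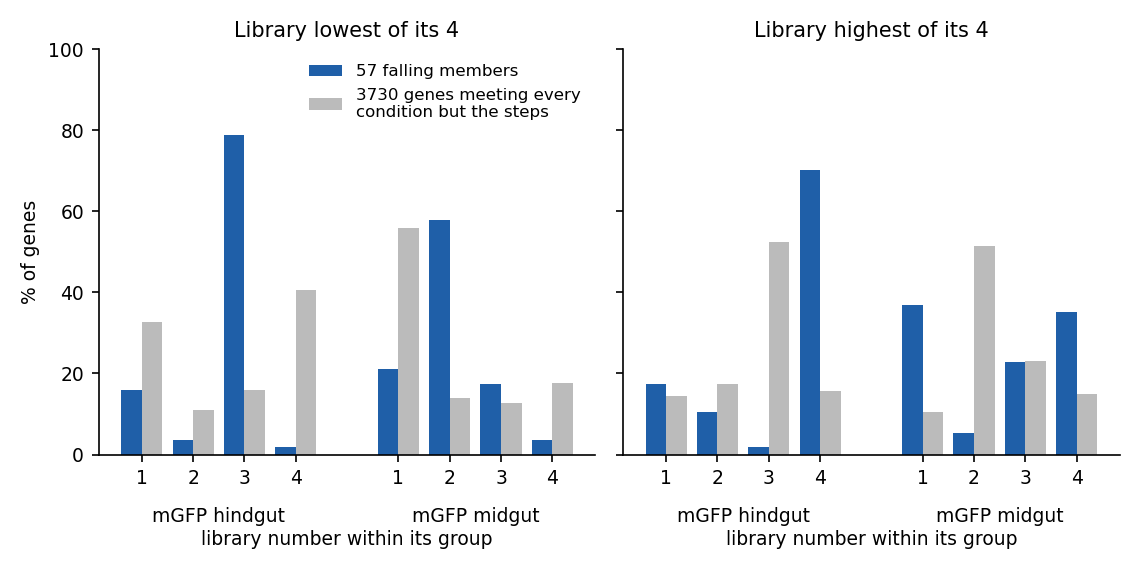
Share of genes, in %, for which each mGFP library is the lowest (left) or highest (right) of the 4 in its group; blue bars are the 57 falling members and grey bars the 3730 genes that met every condition but the steps. mGFP hindgut 3 is the lowest hindgut in 78.9% of falling members, against 15.8% of the 3730 genes. mGFP hindgut 4 is the highest in 70.2%, against 15.7%. The 3730 genes include the members.

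The variation among control libraries was also set beside the Hoxd13 series over all genes. Over the 9346 genes at 10 CPM or more, the deviation of mGFP hindgut 3 from its group mean had a Pearson correlation of 0.518 and a Spearman correlation of 0.301 with the change from Hoxd13 midgut 1 to 4, and that of mGFP hindgut 4 had -0.587 and -0.563. For mGFP midgut 2 the values were 0.407 and 0.397, and for mGFP midgut 4 they were -0.258 and -0.332. In the other 4 control libraries the Pearson values ran from -0.186 to 0.0529 and the Spearman values from -0.121 to 0.0946. Deviations from a mean of 4 libraries are tied to each other, so these are not 8 separate relations. These are correlations across genes, which are not independent replicates, and the 2 quantities share no library. The positive sign says that genes lower in Hoxd13 midgut 4 than in Hoxd13 midgut 1 tended to be low in mGFP hindgut 3 and mGFP midgut 2. The low position of mGFP hindgut 3 in the falling members is therefore not shown to be particular to them. Over the 3730 genes that met every condition but the steps, its Pearson and Spearman values were lower, at 0.23 and 0.175. Those of mGFP hindgut 4 were -0.496 and -0.529 there. Within the 57 falling members the Spearman correlations were 0.184, -0.426, 0.185 and -0.239 for mGFP hindgut 3, mGFP hindgut 4, mGFP midgut 2 and mGFP midgut 4. mGFP hindgut 3 had counts in 14565 genes, the fewest of the control libraries, and 22.6% of its counts were in its 100 most abundant genes, within the range of the other hindguts. Whether the mix of cells or the quality of the RNA differed in these libraries was not tested.

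The number of falling members called between whole groups differed with the test and with the libraries used. By edgeR's quasi-likelihood test with Benjamini-Hochberg adjustment over 12931 genes, 1 of 57 falling members was called lower in Hoxd13 midgut than in mGFP midgut, where 3.89% of all genes tested were called lower, and 0 of 5 rising members were called higher, where 2.54% of all were. The called member was neither of the falling genes named above. At an unadjusted p under 0.05 there were 42 falling and 1 rising members. No count over all genes is given for that cut, so these numbers cannot be judged against a background. DESeq2 called 23 and 0, and over all genes in both directions it called 2196, against 832 by edgeR. Its calls over all genes are not given by direction, so the same holds for the 23. The rule used this contrast, and Hoxd13 midgut 1 lay within the mGFP midgut range by choice. Nothing is read from these shares and counts. The spread of log2 levels within Hoxd13 midgut had a median SD of 1.02 over falling members, against 0.34 in mGFP hindgut and 0.22 in mGFP midgut. The steps asked for by the rule set a wide spread within Hoxd13 midgut, and over all genes at 10 CPM or more the median SDs were 0.34, 0.19 and 0.18 in Hoxd13 midgut, mGFP hindgut and mGFP midgut. Without Hoxd13 midgut 1 the test called 44 of 57 falling members and 1 of 5 rising members. Over all genes in both directions it then called 2726, against 832 with that library. The rule placed Hoxd13 midgut 1 within the mGFP midgut range, which favours more calls among members without it. How much of the rise among members comes from the rule was not tested. Leaving out any other single library gave 0 called falling members, except for mGFP hindgut 3, where there was 1. In mGFP hindgut against mGFP midgut edgeR called 0 members, as the limit on that difference favours, where 2.36% of all genes were called higher and 1.06% lower. There 0 members had an unadjusted p under 0.05 and DESeq2 called 0. When the 8 control libraries were fitted alone with a replicate block, where 7.71% and 4.12% of all genes were called higher and lower, the count was also 0, and 2 falling members had an unadjusted p under 0.05.

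Below the range of the mGFP midguts lay 49, 57 and 57 of the 57 falling members in Hoxd13 midgut 2, 3 and 4, where 11%, 17.7% and 47.9% of the 3730 genes did. Above it lay 3, 5 and 5 of the 5 rising members, where 39.2%, 40.3% and 30.9% did. Against all 8 control libraries, 36, 57 and 57 falling members lay below, where 7.18%, 13.8% and 45.8% of the 3730 genes did, and 2, 4 and 5 rising members lay above, where 30.2%, 31.8% and 28% did. These positions follow largely from the rule. Of the 9346 genes at 10 CPM or more, 467 (5%) met the step condition downward and 9 (0.0963%) upward in Hoxd13 midgut. The same condition, read over library numbers 1 to 4, was met downward by 1 gene (0.0107%) in mGFP hindgut and 1 gene (0.0107%) in mGFP midgut, and upward by 2 (0.0214%) and 1 (0.0107%). The rule was set for the Hoxd13 midguts with earlier results known, and the numbers are only names. Other orders of the control libraries were not read, so these counts are not a like comparison and nothing is read from them. Most of the 467 genes were not members: 308 failed both the hindgut limit and the range condition, 76 failed only the range condition, with Hoxd13 midgut 1 below the range in 64 of these, and 26 failed only the hindgut limit.

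Membership near the limits was finely cut, more so for the rising genes. All 5 rising members had a smallest step under 0.35, from 0.31 to 0.35, and 6 genes just outside had one of 0.25 or more, the nearest at 0.29. Among falling genes 13 members had a smallest step under 0.35, the nearest at 0.3003, and 30 genes outside had one of 0.25 or more, the nearest at 0.297. With TMM-scaled totals 45 genes met the rule downward, 36 of them among the 57, and 3 met it upward, 1 of them among the 5. Under that scaling 52 of 57 falling and 4 of 5 rising members kept every step. The steps are only part of the rule, so these numbers cannot be smaller than those of members meeting all of it. Without Hoxd13 midgut 4, with 2 steps left, 66 genes met the rule downward and 20 upward. Leaving out Hoxd13 midgut 2 or 3, which also leaves 2 steps and merges neighbouring ones, gave 407 and 306 falling and 211 and 188 rising genes. Leaving out Hoxd13 midgut 1 removes the first step and also the range condition, and gave 654 falling and 102 rising genes. These 2 counts are thus from a looser rule. With all libraries and only the range condition dropped, 133 genes met the rule downward and 6 upward. Without mGFP midgut 4 the rising genes numbered 3.

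**Figure D5:**
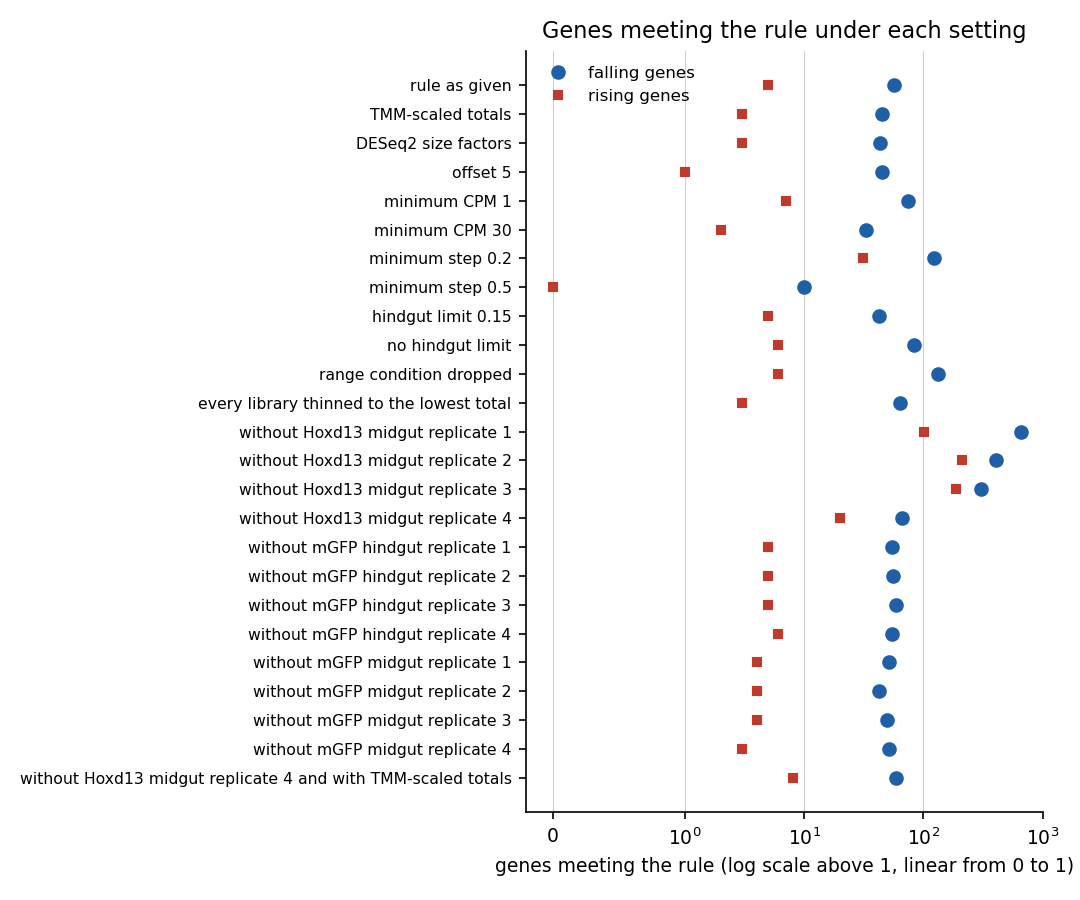
Number of genes that met the rule downward (circles) and upward (squares) as given and under each alternative setting, on an axis that is logarithmic above 1. Without Hoxd13 midgut 1 the range condition does not apply. Falling genes numbered 57 by the rule, 45 with TMM-scaled totals and 66 without Hoxd13 midgut 4, and rising genes 5, 3 and 20.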

How the data were processed

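The authors deposited estimated counts per Ensembl gene as whole numbers, without normalization as far as their unequal totals show. Salmon, DESeq2 and GRCg6a are named without roles or versions, per the submitters' processing notes, and the libraries were made with a stranded mRNA kit, per the labels' protocols. Annotation release and filters: not given in the sources used here. A RefSeq gene table had 0 filled Ensembl cells in 25635 rows, so the 19 gene lists and marker lists had 0 matched members and none was tested.

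The members and lists were chosen with earlier results of these data known. The rule reads all 12 libraries, so members' values are descriptions without a test. The named IDs are the first 2 rising and first 2 falling members by smallest step, the choice set for IDs without symbols. Replicates may be technical, since the labels do not say whether they came from separate embryos.

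Group comparisons used R 4.3.3 with edgeR 4.0.16 (quasi-likelihood F test, robust, TMM, filterByExpr with a count minimum of 10, the 3 groups in 1 fit, calls at an adjusted p under 0.05, SE from the F statistic) and DESeq2 1.42.0 as an alternative. Rule and intervals used Python 3.11.15 with scipy 1.17.1 (exact Clopper-Pearson intervals). The scripts were tested on simulated data. Same-numbered mGFP hindgut and mGFP midgut libraries had deviations from their group means that correlated at 0.489, 0.435, 0.528 and 0.531. The main fit had no replicate block, so its hindgut calls are unpaired. These numbers were treated as pairs, on the data and not the labels, only in the alternative fits with a block. For Hoxd13 midgut and mGFP midgut these values were 0.178, -0.232, 0.0435 and -0.119, so those are not read as pairs, though the alternative fits with a block were run for them too.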

Additional observations from a re-analysis of the deposited data

Results flagged for a closer look

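Among 33 sets of 4 values, 3 had a lone library at a distance. For separate sets chance alone gives about 1 such set in 20. These sets overlap, and those of member levels in Hoxd13 midgut are graded by the rule, so that rate does not apply to the 33 as a whole. Hoxd13 midgut 4 had counts in 13480 genes, far below the other Hoxd13 midguts, and 34.0% of its counts fell on its top 100 genes, far above them. mGFP midgut 1 had counts in 14818 genes, above the other mGFP midguts. By the same measure Hoxd13 midgut 4 was the distant library in 11.2% of the 9346 genes at 10 CPM or more and in 0 of the 62 members, whose 3 steps leave less room for a single distant library.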

How the results depend on the processing

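The rule as given found 57 falling and 5 rising genes. Falling genes numbered 33 at a minimum of 30 CPM, 122 and 10 at minimum steps of 0.2 and 0.5, and 133 without the range condition, and 42 to 654 without single libraries. The 654 came without Hoxd13 midgut 1, where the range condition also did not apply. Rising genes numbered 3 with TMM-scaled totals, 3 with DESeq2 size factors, 1 with an offset of 5, 2 at a minimum of 30 CPM, 31 and 0 at minimum steps of 0.2 and 0.5, 3 with every library thinned to the lowest total, and 3 to 211 without single libraries. Without Hoxd13 midgut 4 and with TMM-scaled totals, a setting chosen after seeing the data, there were 8. Of the 5 rising members, 1, 0 and 3 kept every step with an offset of 5, a minimum step of 0.5 and thinning, and of the 57 falling members 10 did at a minimum step of 0.5. All 5 and all 57 kept every step without any 1 Hoxd13 midgut, by construction.

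Falling members called lower (1) numbered 23 with DESeq2, 0 without a filter, 0 in a fit of the compared groups, 0 with either replicate block and 0 to 44 without single libraries, and rising members called higher (0) numbered 0 to 1 without single libraries. Hoxd13 midgut against mGFP midgut (832 genes) gave 2196 with DESeq2, 299 without a filter, 325 when only those groups were fitted, and 39 to 2726 with 1 library left out. mGFP hindgut against mGFP midgut (442) gave 710 with DESeq2, 909 in the smaller fit and 287 to 892 without single libraries. With the replicate number as a block the counts were 654 and 352 in the fit of 12 libraries and 2 and 1498 in fits of the compared groups. The cause of these changes was not tested. In all 18 alternatives the 4 genes named above had fold changes of the same sign. Their choice by steps in one direction largely sets that sign, so nothing is read from it. Without Hoxd13 midgut 4 the log2 fold changes of ENSGALG00000031312 and ENSGALG00000034591 were 0.056 and 0.28, against 0.52 and 0.73 with all libraries.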
